A study of Mus musculus with 4 samples.

Results

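The refeeding response of livers lacking dynamin-related protein 1 (Drp1) was read from 1 refed and 1 fasted Drp1LiKO array, which are 2 of the 4 arrays of the series. Drp1, encoded by Dnm1l, is the GTPase that divides mitochondria. Drp1LiKO mice carry Alb-Cre Tg/+ and Drp1 flox/flox, so that recombination is driven by the albumin promoter in hepatocytes, and the other liver cells keep the gene. The Cont mice of the remaining 2 arrays were Drp1 flox/flox littermates without Cre. All mice were male, of strain C57BL/6J, and had been on a high-fat diet for 24 weeks. The refed mice had been fasted for 17 h before 4 h of food per the series text, and the study's methods give a shorter fast. The title of the other Drp1LiKO array names no feeding state, and it is read as fasted from the study's methods. Per the methods fasted livers were taken in the morning and refed livers in the afternoon, so feeding and hour of day cannot be told apart. Each group was 1 array, and whether RNA of several mice was pooled was not given in the sources used here. The Dnm1l probe stood at 1.75 in the fasted and 1.46 in the refed Drp1LiKO liver, against 2.03 and 1.58 in the Cont livers. Its place relative to the deleted exons is unknown, so it checks no label. The question addressed is which genes differed between the fed and the unfed state in a liver without Drp1 in its hepatocytes.

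Values are relative signals, that is, the background-subtracted signal of a gene's probe divided by the 75th percentile of its array, and differences are log2 of refed over fasted. With 1 array a group there is no replicate check, and no test of the Drp1LiKO difference can be made. A gene was counted as higher or lower where the difference reached 2-fold and its brighter side was well above background by the scanner's flag. The error given with a difference (±) is the scanner's own measurement SE, with a median of 0.20, and it covers neither animals nor handling. All 4 arrays sat on 1 slide and were read in 1 scan, with 48.7 to 58.2% of gene spots well above background and no saturated spots. Hepatocyte transcripts were bright in both Drp1LiKO livers. Albumin (Alb) stood at 604 in the fasted and 729 in the refed liver, transthyretin (Ttr) at 203 and 273, and apolipoprotein A-I (Apoa1) at 161 and 172. Of 12 hepatocyte markers, 0 reached 2-fold. Brighter genes read higher in the refed liver as a class. The median difference was -0.03 over 4010 genes with a mean log2 signal from -2 to 0, but 0.43 over 1386 genes from 4 to 6 and 0.54 over 690 genes above 6, and quantile normalization brought these medians to 0.03, 0.06 and 0.07. Its value is given beside many of the genes and lists that it moves across the 2-fold limit.

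In the fasted liver, glucagon signaling and the transcription factors FoxO1 and PPARα keep gluconeogenesis, fatty acid oxidation and ketone production active. After a meal insulin removes FoxO1 from the nucleus and, through SREBP-1c, turns on glycolysis and fatty acid synthesis. Secretory load rises with feeding as well, and the endoplasmic reticulum (ER) answers such load through ATF6 and XBP1, which induce chaperones. A separate branch, the integrated stress response, acts through ATF4 and is also engaged by failing mitochondria.

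Short stretches of promoter are shown to give the letters of 2 elements known from ER folding and stress genes. The genes shown were chosen with their values known, and no difference between the sets is drawn from them. The 6 ER folding genes shown were at least 2-fold higher after refeeding and carry the ER stress element, the site of ATF6 with NF-Y, which is CCAAT and CCACG with 9 bases between them, within the 250 bases before the RefSeq start. Their relative signals reached 150.2 after refeeding for Hspa5, a difference of 1.32, and went from 32.8 to 69.7 for Hsp90b1, from 11.1 to 26.7 for Calr, from 34.4 to 69.7 for Pdia6, from 22.2 to 84.2 for Creld2 and from 1.97 to 6.28 for Derl3. After quantile normalization, of these genes only Creld2 and Derl3 stayed at 2-fold, with Hspa5, Hsp90b1 and Pdia6 at 0.82, 0.66 and 0.60 and Calr just under the limit. The letters are printed 5′ to 3′ along the gene's own strand, with the element in capitals, which reads as its reverse complement in 4 of them. Coordinates are those of GRCm38.p6, from RefSeq.
Hspa5 (chr2:34772000-34772068, plus strand): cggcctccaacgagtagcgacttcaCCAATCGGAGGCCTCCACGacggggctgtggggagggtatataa
Hsp90b1 (chr10:86705508-86705576, minus strand): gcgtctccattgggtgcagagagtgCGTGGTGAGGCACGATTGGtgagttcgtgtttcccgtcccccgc
Calr (chr8:84847050-84847118, minus strand): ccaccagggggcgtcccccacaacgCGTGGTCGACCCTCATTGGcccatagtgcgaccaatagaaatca
Pdia6 (chr12:17266466-17266534, plus strand): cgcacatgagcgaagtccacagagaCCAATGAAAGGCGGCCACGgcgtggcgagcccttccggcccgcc
Creld2 (chr15:88819495-88819563, plus strand): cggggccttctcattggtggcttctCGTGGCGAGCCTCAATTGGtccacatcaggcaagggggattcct
Derl3 (chr10:75893217-75893285, plus strand): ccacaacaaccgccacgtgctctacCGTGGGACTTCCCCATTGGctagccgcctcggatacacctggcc
The 4 genes of the integrated stress response below carry the CARE element TTGCATCA, bound by ATF4 with a C/EBP partner. Fgf21 went from 20.2 to 5.91, Atf3 from 8.36 to 10.2, Nupr1 from 14.7 to 15.9 and Vldlr from 0.306 to 0.163.
Fgf21 (chr7:45615597-45615654, minus strand): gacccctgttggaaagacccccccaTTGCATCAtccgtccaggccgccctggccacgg
Atf3 (chr1:191183411-191183468, minus strand): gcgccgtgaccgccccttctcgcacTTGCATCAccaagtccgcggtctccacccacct
Nupr1 (chr7:126625548-126625605, minus strand): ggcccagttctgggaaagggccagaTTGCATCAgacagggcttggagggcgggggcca
Vldlr (chr19:27216795-27216852, plus strand): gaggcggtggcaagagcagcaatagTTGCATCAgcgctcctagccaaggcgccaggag

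Searched on both strands, the ER stress element stood in the promoters of 9 of the 21 ER folding genes with a RefSeq window (42.9%), against 35 of all 27025 promoters (0.13%). The other 3 were Canx, Dnajc3 and Syvn1, whose differences were 0.47, 0.08 and 0.52. The CARE element stood in 7 of 27 promoters of the integrated stress response list (25.9%), against 248 of all (0.92%). Beside the 4 shown, its carriers were Chac1 at 0.36, Slc7a11, which was not well above background on either array, and Pycr1, which was called higher. Among the 323 promoters of genes at least 2-fold higher on both arrays, 6 held the ER stress element (1.86%) and 3 held CARE (0.93%). These 6 are the ER folding genes printed above, so their share restates how they were chosen. Among the 315 promoters of genes at least 2-fold lower, 1 held the ER stress element (0.32%) and 7 held CARE (2.22%). The ER stress element was chosen for the search after the values had been seen, and the letters found are a description of sequence.

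Of 30439 genes, 18329 passed the background flag on the fasted or the refed Drp1LiKO array. In the refed liver 1028 of them (5.61%) were higher and 1311 (7.15%) lower by 2-fold or more, together 12.8%. The shares of 5.61% and 7.15% are the background for every count of list members. The dimmer side missed the flag for 501 genes that were higher and for 744 that were lower, which leaves only a bound on the fold. Among the 16320 genes well above background on both arrays, 527 were higher (3.23%) and 567 lower (3.47%), together 6.7%, with a median difference of 0.10 over all of them. The higher share of these calls was 48.2%, and 61.4% when each array was scaled to its median, which moved all genes up by 0.09. In the Cont pair 735 genes were higher (4.47%) and 958 lower (5.83%) of 16437, together 10.3%.

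**Figure D1:**
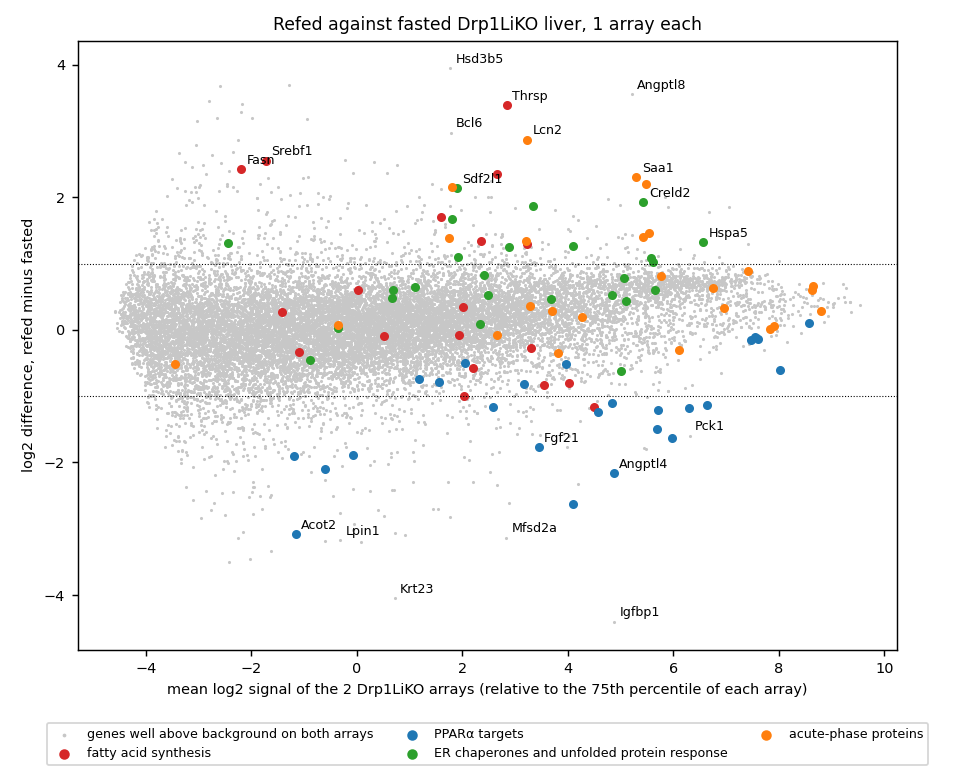
Log2 difference between the refed and the fasted Drp1LiKO liver (vertical axis) against the mean log2 signal of both arrays relative to their 75th percentiles (horizontal axis), for 16320 genes that passed the flag on both arrays, with 4 gene lists in colour and dotted lines at 2-fold. PPARα targets lie below 0 except for 1, ER folding genes lie above 0 with 2 exceptions, Igfbp1 is lowest at -4.41, and the cloud of bright genes sits above 0.

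The largest difference measured on both arrays was that of Igfbp1, the insulin-repressed IGF-binding protein of liver, which went from 135 in the fasted to 6.37 in the refed Drp1LiKO liver, a difference of -4.41 ± 0.20. Its probe lies at chr11:7102442-7102501 of mm9. The keratin gene Krt23 followed, from 6.66 to 0.404 (-4.04 ± 0.21), and Mfsd2a, the lysophosphatidylcholine transporter, went from 21.0 to 2.39 (-3.14 ± 0.20). The remaining 9 of the 12 lowest genes were Tmco3, Ctcflos, Rgs16, Tox4, Lpin1, Zbtb26, Lpin2, Acot2 and Depp1, with differences from -3.51 to -3.06. Over the ways of processing tried, Tmco3 ranged from -3.51 to -0.11 and Tox4 from -3.18 to -1.68. Depp1, a FoxO target, went from 4.74 to 0.569, and Rgs16, a regulator of G protein signaling that is induced by fasting in liver, from 3.21 to 0.348. The ranking itself makes the fasted liver the higher of the Drp1LiKO pair for all 12. Acot2 and Lpin1 are described with their lists.

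At the other end, Hsd3b5, a male-biased steroid dehydrogenase, went from 0.870 to 13.4 (3.94 ± 0.20). Angptl8, the insulin-induced inhibitor of lipoprotein lipase, went from 10.8 to 127 (3.56 ± 0.20), and Thrsp, the lipogenic protein Spot 14, from 2.22 to 23.2 (3.39 ± 0.20). Bcl6, a repressor that opposes STAT5 in male liver, went from 1.22 to 9.58 (2.97 ± 0.20) and Uhrf1, which maintains DNA methylation through replication, from 0.0776 to 0.567 (2.87 ± 0.25). Lcn2, the siderophore-binding acute-phase protein lipocalin-2, went from 3.46 to 25.3 (2.87 ± 0.20). The remaining 6 of the 12 highest were Lrtm2, Naip1, Mmd2, Rab3b, Moxd1 and Fam189a2, with differences from 3.15 to 3.41. All 6 were dim when fasted, at 0.0408 to 0.171, and on the Cont arrays all but Mmd2 and Rab3b were not well above background in either state.

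Where 1 side was not well above background only a bound could be given, set by the lowest signal the array reads as well above background. Micalcl was at least 20.6-fold higher in the refed Drp1LiKO liver, Defa27 at least 18.5-fold, Tssk2 at least 16.4-fold and Cyp4f37 at least 16.1-fold. Mrc2 was at least 16.6-fold lower, Xlr4b at least 15.9-fold, Pcsk1 at least 14.4-fold and 1700128F08Rik at least 14.4-fold. Mrc2 did not keep its direction when all of its probes were read by their median, where its difference was 0.24. Each of these genes stood between 0.593 and 0.759 on its brighter side, and each value rests on 1 probe.

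Genes of gluconeogenesis and FoxO1 action that reached 2-fold were lower in the refed Drp1LiKO liver, and Pck1 was the only gluconeogenic enzyme among them. Of 18 genes of gluconeogenesis and FoxO1 action, 4 were at least 2-fold lower and 0 higher (background 7.15% and 5.61% of all genes), with a median of -0.31. These 4 were Igfbp1, Irs2, Pck1 and the insulin receptor gene Insr. Irs2, the insulin receptor substrate that FoxO1 induces in fasting, went from 2.47 to 0.626 (-1.98 ± 0.21). Pck1, which makes phosphoenolpyruvate for gluconeogenesis, went from 138 to 45.7 (-1.60 ± 0.20), and Insr from 0.661 to 0.278 (-1.25 ± 0.21). The 3 probes of Insr ranged from -1.25 to -0.33. The coactivator gene Ppargc1a (-0.85) and G6pc, the catalytic subunit of glucose-6-phosphatase (-0.74), missed 2-fold, although G6pc reached -1.02 after quantile normalization. Over the ways of processing tried, Ppargc1a ranged from -1.41 to -0.63. G6pc went from 19.3 to 11.5 in the Drp1LiKO pair and from 16.4 to 42.9 in the Cont pair, a difference of 1.38 there. Fbp1 and Pcx, both of gluconeogenesis, were at 0.22 and -0.04.

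On the glucose-using side, 2 of 19 genes of glycolysis and glycogen were at least 2-fold higher and 1 was lower (background 5.61% and 7.15%). Ppp1r3c, a glycogen-targeting subunit of protein phosphatase 1, went from 1.98 to 4.21 (1.08 ± 0.20). A related subunit, Ppp1r3g, went the other way, from 0.216 to a refed signal of 0.00923 that was not well above background. Pklr, the liver pyruvate kinase gene, went from 0.413 to 0.822 (0.99 ± 0.21), and the glycogen synthase gene Gys2 differed by -0.03. The list's median of 0.45 fell to 0.09 under quantile normalization.

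Fatty acid synthesis held members of both directions. Of 19 measured members of 20 listed, 7 were at least 2-fold higher and 2 lower (4 lower after quantile normalization), with a median of 0.27. The transcription factor gene Srebf1 went from 0.125 to 0.734 (2.55 ± 0.22) and fatty acid synthase, Fasn, from 0.0949 to 0.508 (2.42 ± 0.24). Mid1ip1, which activates acetyl-CoA carboxylase together with Thrsp, went from 2.79 to 14.3 (2.36 ± 0.20). Elovl6, the elongase of palmitate, went from 1.68 to 5.45 (1.70 ± 0.20), Acaca, acetyl-CoA carboxylase, from 3.22 to 8.15 (1.34 ± 0.20) and Acly, the citrate lyase, from 5.95 to 14.6 (1.30 ± 0.20). With Thrsp, these are the 7 higher members.

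The 2 lower members were Elovl5 and Fads1, which act on polyunsaturated chains. Elovl5 went from 33.6 to 15.0 (-1.16 ± 0.20) and the delta-5 desaturase Fads1 from 5.78 to 2.89, just at the 2-fold limit. Fads2 was at -0.57. Scd1, which makes oleate from stearate, went from 15.6 to 8.82, a difference of -0.83, and -1.09 after quantile normalization. Scd1 of the Cont pair went from 25.7 to 38.5 (0.58). The carbohydrate sensor gene Mlxipl, which encodes ChREBP, was at -0.80 by its brighter probe and -0.76 by the other. Me1, the malic enzyme gene, and Acss2, acetyl-CoA synthetase, differed by -0.27 and -0.08.

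Cholesterol genes were higher as a list. Of 25 members 7 were at least 2-fold higher and 0 lower, with a median of 0.64, and 0.57 after quantile normalization. Mvd, mevalonate decarboxylase, went from 0.332 to 0.966 (1.54 ± 0.21). Insig1, the ER retention factor of SREBP, was at 1.37, and the transcription factor gene Srebf2 at 1.30, although its second probe read -0.40. Sqle, squalene epoxidase, was at 1.05 and Fdps, farnesyl diphosphate synthase, at 1.08, and at 0.89 after quantile normalization. Hmgcs1, the cytosolic synthase early in the pathway, went from 10.1 to 8.06 (-0.32 ± 0.20). In the Cont pair the list's median was 0.18, with Sqle at -0.42 and Insig1 at -0.18.

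**Figure D2:**
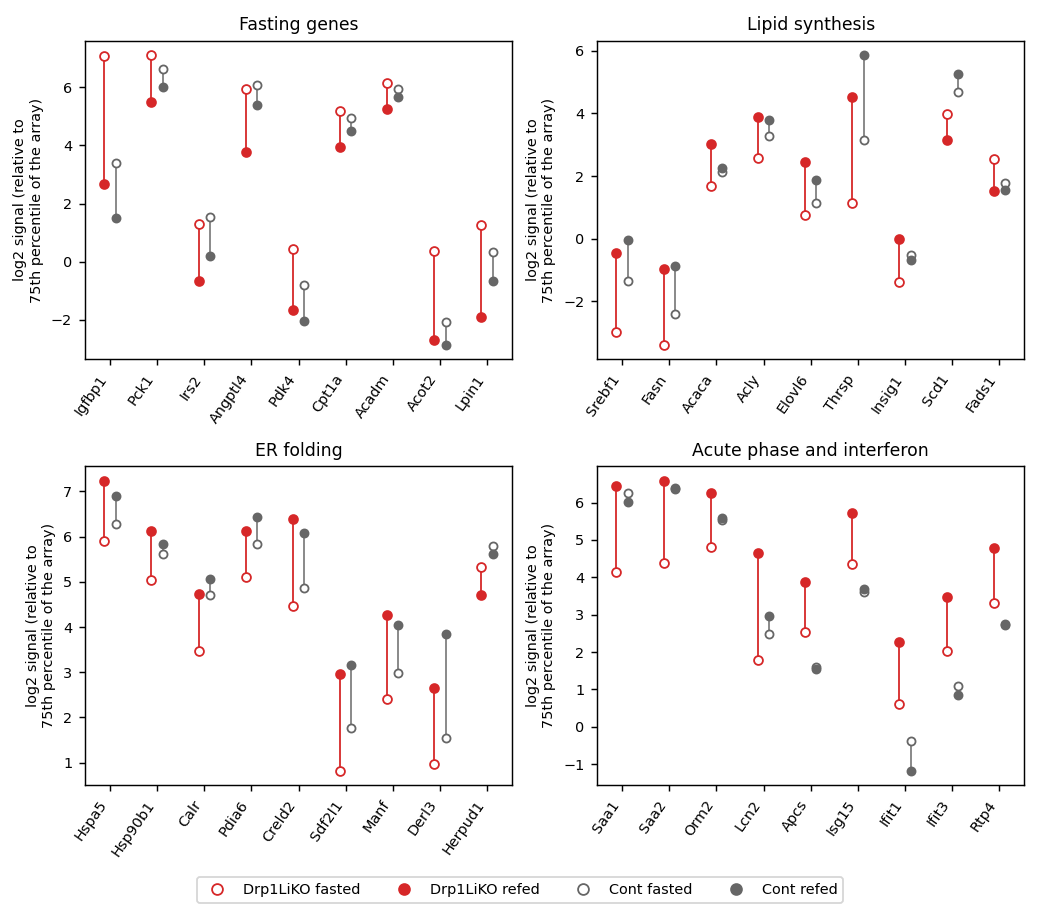
Log2 signal relative to each array's 75th percentile (vertical axis) for genes of fasting metabolism, lipid synthesis, ER folding, and acute-phase and interferon responses, on 1 array each of fasted (open) and refed (filled) Drp1LiKO (red) and Cont (grey) liver. Igfbp1 and the PPARα targets drop between the red points, Thrsp and Srebf1 climb in both genotypes, and Saa1, Lcn2 and Ifit1 climb between the red points while the grey ones lie within 1 log2 unit of each other.

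PPARα targets had the lowest median of the 35 lists. Of 25 measured members 24 lay below 0, 15 were at least 2-fold lower and 0 higher, at a median of -1.16 and of -1.58 after quantile normalization. The cytosolic and mitochondrial acyl-CoA thioesterases headed them, with Acot2 from 1.30 to 0.154 (-3.08 ± 0.23) and Acot1 from 42.4 to 6.84 (-2.63 ± 0.20). These 2 genes are close in sequence, and a probe may read both. Angptl4, an inhibitor of lipoprotein lipase, went from 61.9 to 13.8 (-2.17 ± 0.20) and Pdk4, which shuts pyruvate dehydrogenase, from 1.36 to 0.316 (-2.10 ± 0.21). Plin2, the coat protein of lipid droplets, went from 148 to 67.5 (-1.13 ± 0.20). Of the brightest targets, Cyp4a14 went from 322 to 212 (-0.60), and lay at -1.06 after quantile normalization. Cyp4a10 was at -0.14 and Fabp1 at 0.11, or at -0.63 and -0.37 after quantile normalization, and other probes of Cyp4a10 reached -0.67. Ppara itself was at -0.51.

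Fgf21, the fasting hormone of liver and at once a PPARα and an ATF4 target, went from 20.2 in the fasted to 5.91 in the refed Drp1LiKO liver (-1.77 ± 0.20). The Cont pair ran from 3.37 to 9.37 (1.47). The 2 pairs share no array, and the difference between them was not tested. The PPARα list as a whole had a Cont median of -0.22, with 2 of 25 members at least 2-fold lower there and 2, Fgf21 and Cidec, higher.

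The enzymes of mitochondrial β-oxidation and ketone production were lower by less. Of 20 members 17 lay below 0, 2 were at least 2-fold lower (background 7.15%) and 0 higher, with a median of -0.53. Cpt1a, which admits fatty acids to mitochondria, went from 36.3 to 15.5 (-1.23 ± 0.20), with a second probe at -1.62. Acadm, medium-chain acyl-CoA dehydrogenase, was at -0.90 and Bdh1, which makes β-hydroxybutyrate, at -0.81, and both passed 2-fold after quantile normalization at -1.35 and -1.19. The trifunctional protein genes Hadha and Hadhb were at -0.53 and -0.58, and Acadvl, for very long chains, at 0.10.

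Among 23 measured lipid droplet and triglyceride genes of 25 listed, 5 were at least 2-fold lower and 1 higher, with a median of -0.45. Lpin1, a phosphatidate phosphatase and a coactivator of PPARα, went from 2.41 to 0.268 (-3.17 ± 0.21), and its relative Lpin2 from 5.49 to 0.641 (-3.10 ± 0.21), with a second probe at -2.05. The perilipins Plin5 and Plin4 were at -1.10 and -1.03. Mogat2, a monoacylglycerol acyltransferase, was the higher one (1.25), and Dgat2, which completes triglyceride, went from 66.4 to 127 (0.93). The lipase gene Pnpla2 was at -0.45 and its inhibitor G0s2 at 0.22. In the Cont pair the list had a median of 0.17, G0s2 was at 1.42 and Lpin1 at -0.99.

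The ER folding genes were higher together. Of 25 measured members, 23 lay above 0, 11 were at least 2-fold higher and 0 lower, with a median of 0.79 against 0.08 over all 18329 genes. Quantile normalization left a median of 0.60 and 6 calls, which were Dnajb11, Sdf2l1, Creld2, Manf, Hyou1 and Derl3. Sdf2l1, a partner of the chaperone BiP, went from 1.77 to 7.80 (2.14 ± 0.20) and Creld2, a disulfide isomerase, to 1.92 ± 0.20. Manf, a secreted ER resident, went from 5.31 to 19.3 (1.86 ± 0.20). Hspa5, which encodes BiP, was at 1.32 ± 0.20, and at 0.82 after quantile normalization.

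Inside that list the members printed above with the ER stress element were at 1.02 (Pdia6) to 1.92 (Creld2). They were chosen with their values known, so this range says nothing about the element. Its other carriers in the list, Canx, Dnajc3 and Syvn1, were at 0.47, 0.08 and 0.52. Herpud1, a component of ER-associated degradation, was lower (-0.62), and so was the sensor gene Atf6 (-0.46). Xbp1, whose spliced form activates many of these genes, went from 40.5 to 61.7 (0.61), and the probe does not part its spliced from its unspliced form. The list's Cont median was 0.37, with Sdf2l1 at 1.39, Creld2 at 1.22, Derl3 at 2.29 and Hspa5 at 0.62. Cytosolic heat shock proteins had a median of 0.58 with 0 of 15 at least 2-fold higher, and 0.19 after quantile normalization. Hspa1a was the only called one, from 0.188 to 0.0578 (-1.70 ± 0.35).

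The integrated stress response had no common direction, with 4 of 28 measured members at least 2-fold higher and 3 lower, and a median of 0.10 that turned to -0.17 under quantile normalization. The lower ones were Ddit4, an inhibitor of mTORC1, from 18.3 to 2.99 (-2.61 ± 0.20), Fgf21, and Gdf15, the stress hormone that suppresses appetite, from 14.6 to 6.54 (-1.16 ± 0.20). Among the higher ones, Asns, asparagine synthetase, went from 1.67 to 4.63 (1.47 ± 0.20), Aldh18a1, of proline synthesis, was at 1.12, Pycr1, of the same route, reached 0.0784 from a fasted signal not well above background, and Psph, of serine synthesis, was at 1.01. After quantile normalization Psph lost its call and Mthfd2, of mitochondrial folate metabolism, gained one (0.91 before and 1.02 after). Atf4 differed by 0.20, Ddit3, which encodes CHOP, by 0.72, and Trib3 by -0.48. The mitochondrial chaperones and proteases had a median of 0.17 that turned to -0.08 under quantile normalization, with Hspd1 at 0.39, Lonp1 at 0.35 and Clpx, the unfoldase of mitochondrial matrix, at -1.30.

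Genes of mitochondrial shape differed little. Of 11 measured members of 12 listed, 1 was at least 2-fold higher and 0 lower (background 5.61% and 7.15%). Their median of 0.10 turned to -0.00 under quantile normalization. Mtfp1, a promoter of fission, went from 6.99 to 14.1 (1.01 ± 0.20), and 0.80 after quantile normalization. The fusion genes Mfn1, Mfn2 and Opa1 were at 0.14, 0.28 and 0.17, the Drp1 receptor genes Mff and Fis1 at -0.24 and 0.59, and Dnm1l at -0.27. Subunit genes of respiratory complex I, named Nduf, were above 0 in 42 of 44 cases, with a median of 0.47, and 0.11 after quantile normalization.

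Acute-phase proteins, the plasma proteins that liver makes under inflammatory cytokines, were higher in the refed Drp1LiKO liver. Of 25 members 21 lay above 0, 8 were at least 2-fold higher and 0 lower, with a median of 0.60, and of 0.14 after quantile normalization, when 7 were still at least 2-fold higher. Serum amyloid A gene Saa1 went from 17.7 to 87.5 (2.31 ± 0.20) and Saa2 from 20.7 to 95.6 (2.20 ± 0.20). Orm2, an orosomucoid, went from 28.0 to 76.8 (1.46 ± 0.20), Orm3 from 1.65 to 7.34 (2.15 ± 0.20) and Apcs, serum amyloid P, from 5.79 to 14.6 (1.33 ± 0.20). The Saa and the Orm genes each share long stretches of sequence, so that their probes are not independent readings. The fibrinogen genes Fga, Fgb and Fgg lay between -0.35 and 0.06, and Hamp, the iron hormone hepcidin, at 0.34. The median was -0.03 in the Cont pair, with Saa1 at -0.23, Saa2 at 0.03 and Lcn2 at 0.49. The Cont livers had Saa1 at 76.6 fasted and 65.3 refed, so the fasted Drp1LiKO liver, at 17.7, was the low one of the 4.

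Interferon-stimulated genes were higher in the same liver. Of 23 measured members of 24 listed, 21 lay above 0, 8 were at least 2-fold higher and 0 lower, with a median of 0.76, and 0.63 after quantile normalization. Ifit1, which binds foreign RNA caps, went from 1.54 to 4.83 (1.65 ± 0.20), Ifit3 from 4.06 to 11.1 (1.44 ± 0.20) and Isg15, a ubiquitin-like protein, from 20.3 to 52.9 (1.38 ± 0.20). Rtp4, a receptor transporter, went from 9.86 to 27.7 (1.49 ± 0.20). The chemokine gene Cxcl10 was at 1.05 by its brighter probe but at -0.15 by the other, and the brighter probe at 0.84 after quantile normalization. Irf7, the master regulator of the response, was at 0.46. The Cont median of the list was -0.12, and Ifit1 was at -0.80.

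Some neutrophil and red cell markers were higher in the same liver, and others were not. The neutrophil alarmin genes S100a8 and S100a9 went from 0.417 to 2.14 (2.36 ± 0.21) and from 1.26 to 5.77 (2.20 ± 0.20). Camp, a granule peptide, was at 1.60, Elane at 0.42 and Ly6g at 0.22. Mpo, myeloperoxidase, reached 0.0902 from a fasted signal not well above background, at least 2.45-fold higher. Of 10 neutrophil markers 8 were measured, 4 of them at least 2-fold higher, and the summed relative signal of the list was 67.7 fasted and 60.5 refed, since it is dominated by Csf3r. The hemoglobin genes Hba-a1 and Hba-a2 went from 56.7 to 124 and from 179 to 369, but Alas2, which starts heme synthesis in red cell precursors, was at -0.05. The 8 red cell markers held 6 measured members, 2 at least 2-fold higher, and their summed signal was 256 fasted and 521 refed. Hba-a1 and Hba-a2, which are near copies, lay at 0.61 and 0.72 after quantile normalization. The part of blood cells in the acute-phase and interferon differences was not tested.

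Macrophage markers had a median of 0.54, and 0.27 after quantile normalization, with 1 of 16 at least 2-fold higher (background 5.61%). That was Marco, a scavenger receptor, from 16.7 to 41.2 (1.30 ± 0.20), at 0.95 after quantile normalization. Adgre1, which encodes F4/80, went from 1.87 to 2.81 (0.59), Cd68 was at 0.34 and the Kupffer cell gene Clec4f at 0.43. The summed macrophage signal was 138 fasted and 218 refed. Lymphocyte markers held 10 measured of 14, with Cd3d the only one at least 2-fold higher (1.08), 3 after quantile normalization, and a summed signal of 20.4 fasted and 19.6 refed. Whether cells of a kind were more numerous or held more RNA cannot be told apart in whole liver.

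Endothelial markers lay below 0 in 9 of 10 cases, with a median of -0.37 and 0 calls. Of 12 stellate cell and matrix markers 2 were at least 2-fold lower, Acta2, smooth muscle actin, from 0.345 to 0.151 (-1.19 ± 0.23) and the collagen gene Col1a1 from 0.677 to 0.335 (-1.01 ± 0.21), which quantile normalization put at -0.95. Of 8 cholangiocyte markers 5 were measured, 3 at least 2-fold higher, Krt19 from 0.108 to 0.226 and Krt7 from 0.0397 to 0.0863 among them. Spp1, osteopontin, the brightest of that list in the fasted liver, went from 0.689 to 0.383 (-0.85), while Epcam, Cftr and Muc1 were not well above background on either array. Of the acinar markers 4 of 11 were measured with 0 calls, and of the muscle markers Pvalb alone, at 0.42, while Ckm, Acta1 and the myosin genes were not well above background in either Drp1LiKO liver. Nor were adiponectin, resistin, leptin and perilipin 1 of the adipocyte markers. The 5 measured of 9 had a median of 0.44, with Cfd, adipsin, from 0.126 to 0.282 (1.16 ± 0.23) and Adrb3, an adrenergic receptor, from 0.581 to 0.254 (-1.19 ± 0.21). A second probe of Adrb3 read -0.41. Car3 was at 0.81, Fabp4 at 0.44 and Cidea at -0.78.

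**Figure D3:**
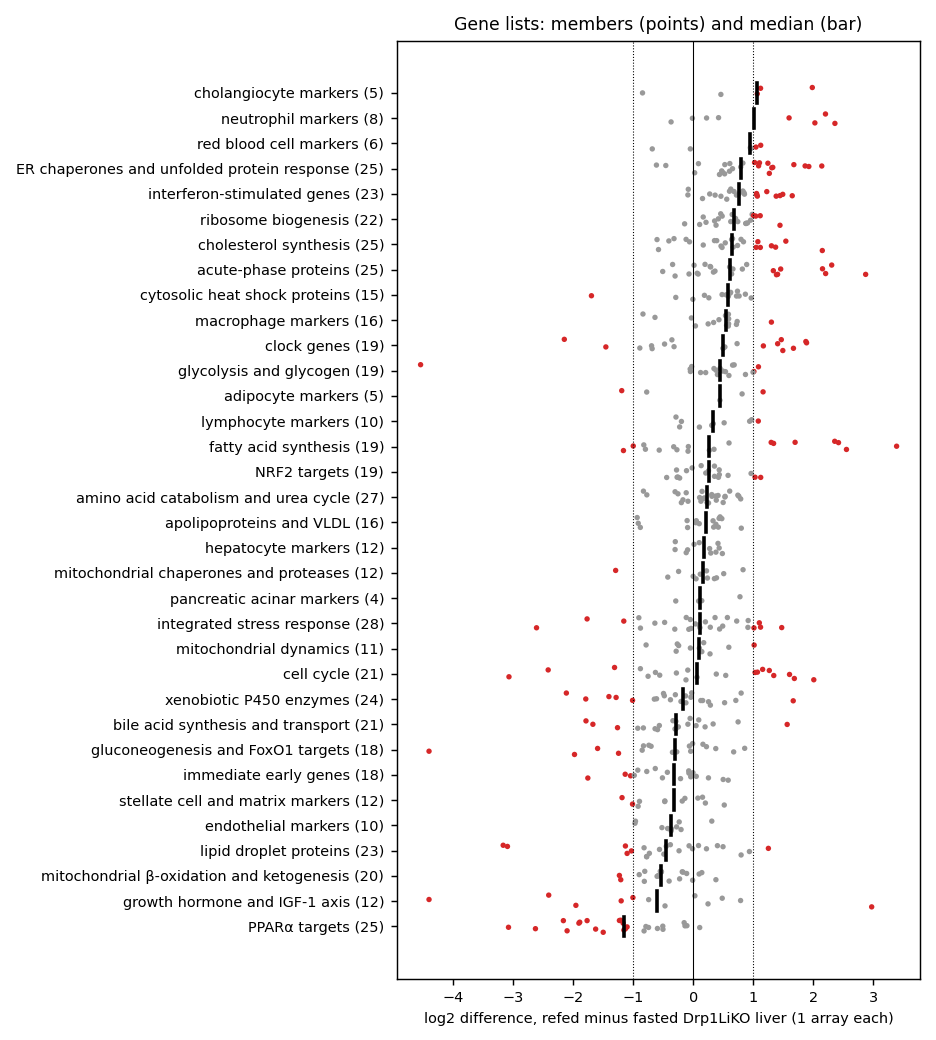
Log2 difference, refed minus fasted Drp1LiKO liver (horizontal axis), of the members of each list that were well above background on at least 1 of the 2 arrays (points, red where at least 2-fold with the brighter side well above background), with the list's median as a bar and the number of members in brackets. PPARα targets have the lowest median (-1.16), and the cholangiocyte, neutrophil and red cell markers, each of 8 members or fewer, and the 25 ER folding genes have the highest.

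Genes of ribosome assembly were higher together, with 21 of 22 above 0, 4 at least 2-fold higher and 0 lower, and a median of 0.68, or 0.62 after quantile normalization, when 2 were at least 2-fold higher. Nop56, a core protein of the snoRNPs that modify ribosomal RNA, went from 3.72 to 10.1 (1.44 ± 0.20), with 3 probes from 1.11 to 1.46. Wdr43 and Wdr12, both assembly factors, were at 1.11 and 1.04, with second probes at 0.20 and 0.49. Fibrillarin, Fbl, was at 0.74 and nucleolin, Ncl, at 0.42. The Cont median was 0.33.

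Of 21 measured cell cycle genes of 25 listed, 8 were at least 2-fold higher and 3 lower, with a median of 0.06. The helicase subunit genes Mcm5 and Mcm6 went from 0.321 to 1.29 (2.01 ± 0.21) and from 1.83 to 5.57 (1.60 ± 0.20), with Mcm3, Mcm4 and Mcm2 at 1.34, 1.27 and 1.07. Rrm2, which makes deoxynucleotides, went from 0.349 to 1.12 (1.68 ± 0.21), and Ccne1, cyclin E1 of the entry into S phase, was at 1.15. The mitotic kinase gene Aurka, also among the higher ones, went from 0.148 to 0.303 (1.03 ± 0.22). Mki67, the proliferation antigen, went from 0.247 to 0.134 (-0.88 ± 0.23), short of 2-fold, and Cdk1 from 0.162 to a refed signal not well above background. Cdkn1a, the p21 inhibitor of the cycle, went from 3.78 to 0.707 (-2.42 ± 0.21). In the Cont pair Mcm5 was at 0.75, Mcm6 at 0.35, Rrm2 at 1.14 and Cdkn1a at -1.31.

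Clock genes, whose levels follow the hour, were among those that differed. Of 19 measured of 21, 7 were at least 2-fold higher and 2 lower. Nr1d1, which encodes REV-ERBα, went from 1.16 to 0.261 (-2.15 ± 0.21) and Arntl, which encodes BMAL1, from 0.772 to 0.281 (-1.46 ± 0.21). Per2 went from 0.135 to 0.379 (1.49 ± 0.23), Dbp reached 24.1 (1.17 ± 0.20), Usp2 went from 0.804 to 2.55 (1.67 ± 0.20) and Wee1 from 0.271 upward by 1.89 ± 0.21. Dbp lay at 0.91 after quantile normalization. In the Cont pair Nr1d1 was at -1.48, Wee1 at 1.16 and Per2 at 0.50. The hour of collection differed between the arrays in the same way as feeding.

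Feedback genes of growth hormone signaling through STAT5 were lower. Cish went from 3.65 to 0.687 (-2.41 ± 0.20), Socs2 from 0.472 to 0.122 (-1.96 ± 0.24) with 3 probes from -1.96 to -1.56, and Socs3, another of the SOCS inhibitors, was at -1.20. Igfbp2 went from 64.2 to 31.9 (-1.01 ± 0.20). Of 12 measured members of 13 listed, 5 were at least 2-fold lower, Igfbp1 among them, and 1 was higher, Bcl6. The hormone gene Igf1 was at 0.48, with 5 probes from -0.17 to 0.48, and the receptor gene Ghr at 0.24. Cont livers had Cish at -3.01 and Socs2 at -1.75.

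Bile acid and drug metabolism held single large differences. Cyp8b1, which makes cholic acid, went from 7.91 to 2.48 (-1.67 ± 0.20), and Nr0b2, which encodes the repressor SHP, from 2.11 to 0.611 (-1.79 ± 0.21). Cyp7a1, the rate-limiting enzyme of bile acid synthesis, reached 5.03 (0.75), against -1.03 in the Cont pair, and Cyp7b1, of the alternative route, from 13.5 by 1.56 ± 0.20. Of 21 members 1 was at least 2-fold higher (background 5.61%) and 3 lower (background 7.15%), or 5 lower after quantile normalization. Among 24 measured drug-metabolizing P450 genes 5 were at least 2-fold lower and 1 higher. Cyp3a11, the main mouse CYP3A enzyme, went from 83.0 to 23.9 (-1.79 ± 0.20), with a second probe at -2.99, and Cyp2b10, a target of the receptor CAR, from 2.55 to 1.05 (-1.29 ± 0.20). Cyp2c70, which makes muricholic acids, went from 10.2 to 32.4 (1.66 ± 0.20). Cyp2e1 differed by 0.12. Cont livers differed by 0.27 for Cyp3a11 and by 1.34 for Cyp2c70.

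Other lists held few calls, beside a background of 5.61% higher and 7.15% lower over all genes. Amino acid catabolism and the urea cycle had 0 of 27 at least 2-fold changed, from Sds, serine dehydratase, at -0.83 to Prodh, proline dehydrogenase, at 0.79, with a median of 0.23 that turned to -0.18 under quantile normalization. After quantile normalization 2 of them, Sds and Tdo2, passed 2-fold at -1.06 and -1.10. Over the ways of processing tried, Sds ranged from -2.06 to -0.74. Apolipoprotein genes had 0 of 16, with Apoa4 at -0.94 and Apoa5 at -0.92, both past 2-fold after quantile normalization, and a median of 0.21 that turned to -0.13. NRF2 targets had 2 of 19 at least 2-fold higher, Gsta1 (1.12) and Cbr3 (1.03), and neither after quantile normalization, while Gclc was at -0.11, Hmox1 at 0.43 and Nqo1 at 0.35. Immediate early genes, which respond to handling within minutes, had 3 of 18 at least 2-fold lower, Egr2, Junb and Zfp36 (-0.92 for Zfp36 after quantile normalization), and 0 higher, with Fos at -0.93, Myc at -0.52 and Jun at -0.04.

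**Figure D4:**
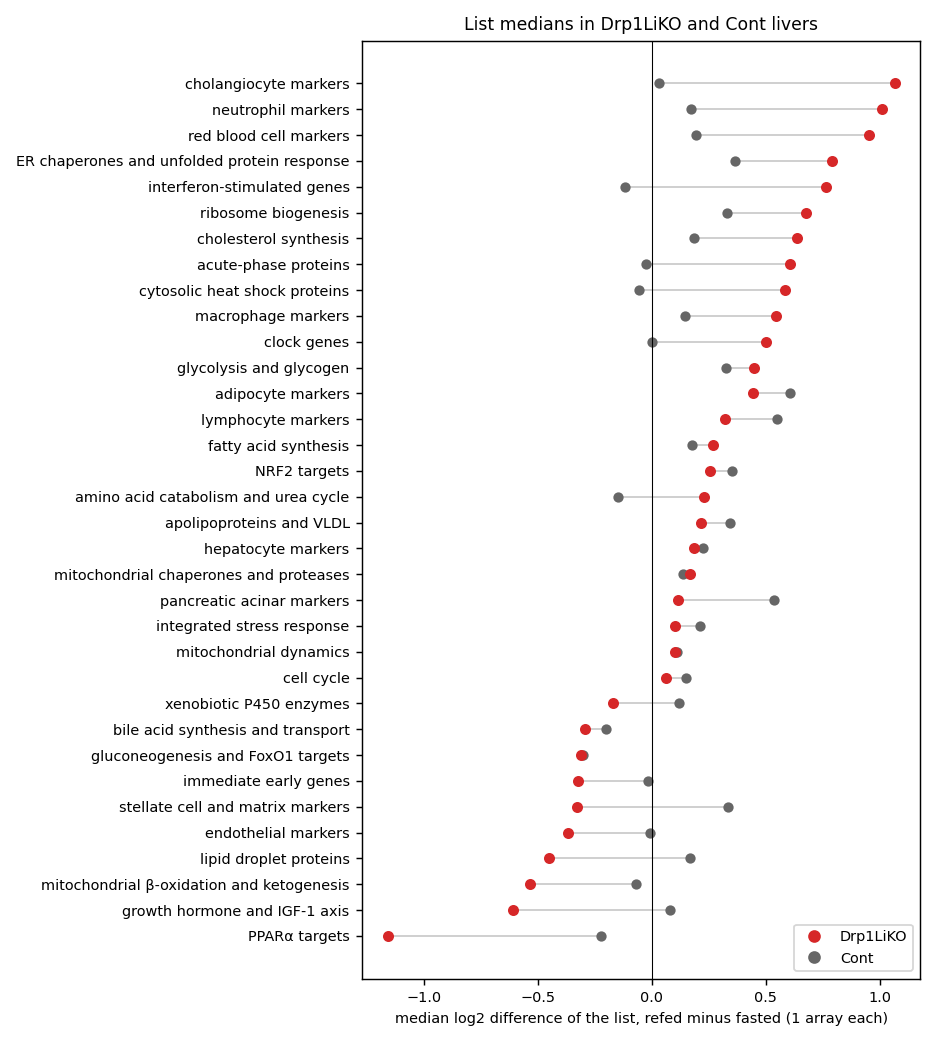
Median log2 difference, refed minus fasted (horizontal axis), of each gene list in the Drp1LiKO pair (red) and the Cont pair (grey), 1 array each. The PPARα, interferon and acute-phase lists have medians of -1.16, 0.76 and 0.60 in the Drp1LiKO pair and of -0.22, -0.12 and -0.03 in the Cont pair, and the difference between the pairs has no test.

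Set against the Cont pair over 14447 genes that passed the flag on every array, 848 genes were at least 2-fold changed in the Drp1LiKO pair and 573 in the Cont pair. Of these 208 changed in the same direction in both, which is 24.5% of the Drp1LiKO and 36.3% of the Cont genes, and 12 in opposite directions. Of the 848, 738 had the same sign in the Cont pair. The matching share over all 14447 genes was not computed, so this count is no measure of a shared response. Bright genes read higher in both pairs, with medians of 0.54 in Drp1LiKO and 0.38 in Cont for a mean log2 signal above 6. Over the genes that passed the flag on both Cont arrays, 1.69% were higher and 2.41% lower, together 4.11%.

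Feeding was tested over both genotypes, with genotype as a term and 1 residual degree of freedom. By limma with Benjamini-Hochberg adjustment, 0 of 16744 genes passed an adjusted p of 0.05, with the smallest at 0.169, while 4414 had an unadjusted p under 0.05, of which 2641 were higher after refeeding. After quantile normalization 3476 had an unadjusted p under 0.05, 1618 higher and 1858 lower. With only the 14447 genes that passed the flag on every array, 15 (0.104%) were called, 6 higher (0.0415%) and 9 lower (0.0623%). Angptl8 (adjusted p = 0.0325 in limma), Mid1ip1 (0.0325) and Thrsp (0.0378) were among the higher ones, with feeding effects of 3.32, 2.29 and 3.05. Ctcflos (0.0325) and Cish (0.0419) were among the lower ones, at -3.14 and -2.71. A response particular to 1 genotype counts as error in this model. In simulated data the model recovered 0 of 200 genes changed 4-fold, so a lack of calls does not show a lack of feeding effects.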

How the data were processed

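Liver RNA of 4 mice or groups of mice was hybridized to 1-colour Agilent 4x44K v2 arrays, 1 for each genotype and feeding state. The intensity values, as deposited by the authors, are the processed signals of Agilent Feature Extraction (9.5.1.1 per the submitters' processing notes, 10.7.1.1 per the file headers), background-subtracted and not normalized between arrays. The authors also deposited a table of quantile-normalized intensities, whose log2 values served as an alternative. A recomputed quantile normalization matched these log2 values within 0.05 for 99.8% of values. Outlier spots and control spots were left out (39392 probes kept of 39429), repeated spots were averaged, and log2 values were centred on each array's 75th percentile. The methods name another array and RNA kit than the labels do.

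Names came from RefSeq (GRCm38.p6) for 26733 of 28358 probes with a RefSeq accession, and 12659 probes kept the name in the file. Where a gene had several probes, it was read from the one that passed the background flag on most arrays and was then brightest. Among 154 changed genes with several measured probes, all probes had 1 direction in 138 and all reached 2-fold in 76. A gene that is dim on 1 side is given as a bound against the lowest signal that passed the flag there. Precision is limited by the number of arrays. Python 3.11.15, R 4.3.3 and limma 3.58.1 were used, and the rule and the model were tested on simulated data. Named genes are the 12 highest and 12 lowest differences, the 4 largest bounds each way, anchor genes of each list and up to 4 members of each list with the largest differences, and members named beside these were picked after their values were seen. The genes, lists and comparisons were chosen with earlier results of these data known. Alternatives were the median scaling, quantile normalization, normexp background correction (offset 50), the authors' values, the median over probes, other filters on background and other fold thresholds. Columns not used here number 0. Some genes that are members of the lists, and count in them, are not reported here by name.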

Additional observations from a re-analysis of the deposited data

Results flagged for a closer look

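Fgf21 and Tox4 moved at least 2-fold in opposite directions in the Drp1LiKO and the Cont pair, and the difference between the pairs was not tested. Fgf21 had a refed minus fasted difference of -1.77 in Drp1LiKO and 1.47 in Cont liver. The signal of Tox4 went from 1.99 to 0.220 in Drp1LiKO liver (-3.18) and from 0.241 to 7.04 in Cont liver (4.87). A second probe of Tox4 read -0.19 in the Drp1LiKO pair, so that its value rests on 1 probe.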

How the results depend on the processing

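No paired analysis was possible because each group holds 1 array and the labels number no further replicates. The 1028 higher and 1311 lower genes became 501 and 387 with normexp background correction, 527 and 567 when both arrays had to be well above background, and 1828 and 1982 with no filter on background. At a 1.5-fold threshold they numbered 3206 and 2736, and at 4-fold 419 and 487. Reading dim sides at their bound left 868 lower genes. Median scaling, quantile normalization, the authors' values and the median over probes kept both counts within 1.5 times. Restricting the feeding model to genes well above background on all 4 arrays gave 15 genes in place of 0, and the cause was not tested. Of 1230 alternative values of the 246 named genes, 945 stayed within their measurement error, 284 moved further without turning a called direction, and 1 turned, Mrc2, from -4.68 to 0.24 with the median over its probes. Of 287 list medians 236 stayed within the typical measurement error. Bright lists moved most under quantile normalization, with acute-phase proteins at 0.14. Genes near the lowest readable signal, under about 0.1, have a large error, and no statement about a single animal's spread can be made.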
